A study of Homo sapiens with 8 samples.

Results

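Gene expression was compared between A498 and 786-O, a pair of established human cell lines that the labels describe as clear cell renal cell carcinoma (ccRCC) of the kidney. The comparison used all 8 libraries of the series, 4 of each line, and 10973 of the 22678 genes that could be given a current symbol. A gene was kept when its locus spanned at least 200 bp and its mean over the 8 libraries was at least 1 FPKM, a count of sequenced fragments scaled to the length of the transcript and to the depth of the library. In each line 2 libraries came from cells that received a non-targeting control siRNA (NTC 1 and NTC 2), 1 from cells that received siRNA1 and 1 from cells that received siRNA2. Both of those siRNAs were directed at SLINKY, a long intergenic noncoding RNA. All siRNAs were transfected with Lipofectamine 2000 at 50 nM for 16 h by the labels, so that no library represents untransfected cells. A498 was grown in DMEM and 786-O in RPMI-1640, both with fetal bovine serum. Line and medium therefore cannot be told apart in any result given here. Each line derives from the tumor of 1 patient, and nothing in the labels says that the libraries of a line came from separate cultures. The p-values thus measure only the spread between these libraries, which may be technical, and the differences are between these cultures and not between classes of tumor.

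As background, ccRCC is thought to arise from the proximal tubule epithelium of the kidney. The VHL protein marks the hypoxia-inducible factors for degradation, and its loss in ccRCC lets HIF2 (encoded by EPAS1) and, in some tumors, HIF1 (encoded by HIF1A) accumulate and switch on genes for glycolysis, blood vessel growth and lipid storage. Kidney epithelium is specified by transcription factors of the PAX and LHX families among others, and renal cancers commonly keep PAX8. Cell lines of 1 cancer type can differ in which lineage, detoxification and antigen presentation genes they keep on.

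SLINKY, the siRNA target, stood at 14.6 and 16.1 FPKM in the A498 controls, and at 1.64 FPKM with siRNA1 and 3.01 FPKM with siRNA2. In 786-O its levels were 1.45 and 1.39 FPKM in the controls, 0.0569 FPKM with siRNA1 and 0.594 FPKM with siRNA2. Each siRNA library was thus below both control libraries of its own line. The deposited confidence intervals in 786-O were as wide as for 10.96 and 17.9 reads in NTC 1 and NTC 2. They were as wide as for 40.9 reads with siRNA1, the lowest level, and 5.72 reads with siRNA2. Level and estimated reads thus disagree for siRNA1, and the levels in 786-O are poorly determined. In A498 the estimates were 12.2 reads with siRNA1 and 14.6 reads with siRNA2. All 4 A498 libraries, siRNA libraries included, lay above all 4 of 786-O (two-sided exact permutation test, p = 0.0286, the smallest that the 70 arrangements of 8 libraries allow). The arrangements ignored transfection, so control and siRNA libraries were treated as interchangeable although the siRNAs target this transcript. The lowest A498 library (siRNA1, 1.64 FPKM) lay close to the highest of 786-O (control, 1.45 FPKM). The control means differed 10.8-fold, a ratio that rests on few reads in 786-O. Depth, estimated from the confidence intervals in the files, was 25.1 to 53.1 M mapped reads in A498 and 36.3 to 64.7 M mapped reads in 786-O, M standing for mega. Between 10969 and 11057 genes reached 1 FPKM in an A498 library and between 10322 and 10381 in a 786-O library.

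The line was by far the main difference among the libraries. The first principal component carried 96.1% of the variance of log2(FPKM + 0.1) and the second 1.01%. Pearson's r across genes, which are not independent replicates, was at least 0.992 between libraries of 1 line and 0.805 to 0.814 between lines. In the limma fit, with transfection as a covariate and Benjamini-Hochberg adjustment, 9235 of the 10973 genes (84.2%) passed an adjusted p of 0.05. Of these, 4506 were higher in A498 and 4729 higher in 786-O. Since the median SD over the 4 libraries of a line was 0.087 (A498) and 0.082 (786-O) on the log2 scale, most of the calls were small differences, and 6684 called genes differed by less than 2-fold. The counts below therefore use genes that were called and at least 2-fold different: 1640 genes, 14.9% of those tested, were higher in A498, and 911, or 8.30%, were higher in 786-O. In all 4 pairs of libraries with the same transfection, 1417 and 708 of them differed at least 2-fold. At least 10-fold differences were found for 417 genes in favor of A498 and 129 in favor of 786-O. All log2 differences are on the log2(FPKM + 0.1) scale, which understates the change of genes with low values.

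**Figure D1:**
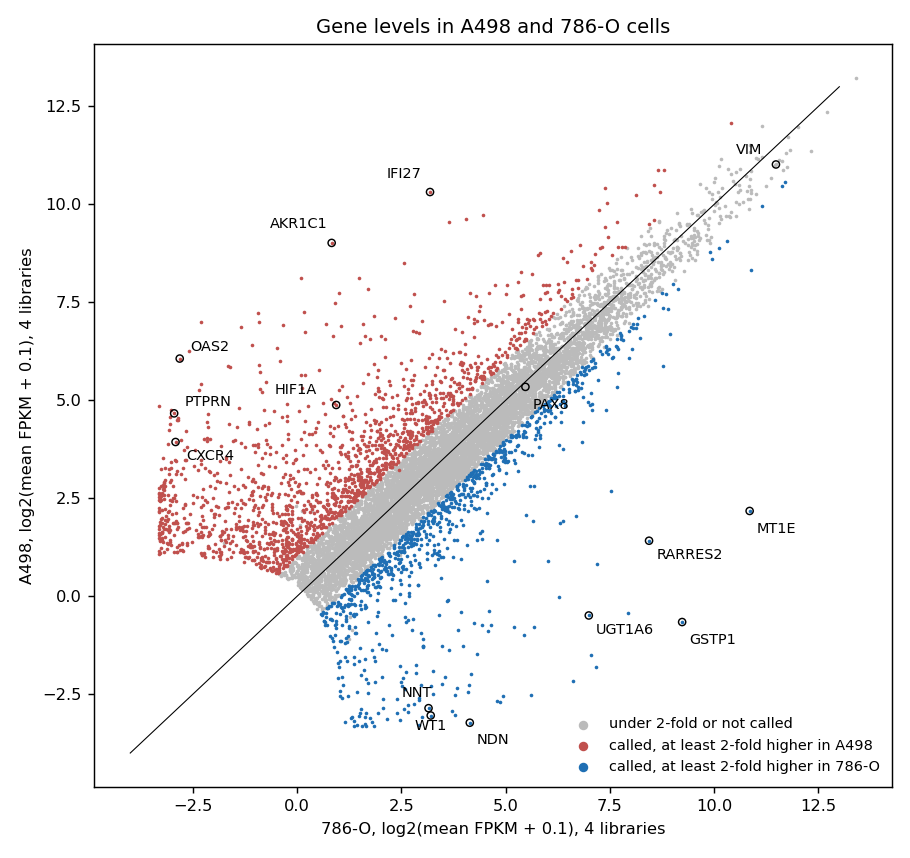
Each point is 1 of the genes tested, with its mean level over the 4 libraries of 786-O (x axis) and of A498 (y axis) as log2(mean FPKM + 0.1); the line marks equal levels. The 1640 red genes outnumber the 911 blue ones, and many of the red genes lie at the left edge, where the mean in 786-O is near 0.

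Genes on in 1 line only were defined as those with at least 1 FPKM in each of the 4 libraries of that line and less than 0.1 FPKM in each of the 4 of the other. This is a description of levels, with no test. In A498, 152 genes (1.39%) met the definition, of which 146 were protein coding and 4 were long noncoding RNAs, and 14 were listed at 0 in every 786-O library. In 786-O, 38 genes (0.346%) met it, of which 37 were protein coding and 2 were listed at 0 in every A498 library. The libraries pool the cells of a culture, so fewer cells with a transcript and less transcript per cell cannot be told apart. Most of the genes on in 1 line only were modest in level, with a median of 4.19 FPKM in A498 and 3.93 FPKM in 786-O. A mean of 10 FPKM was reached by 21 and 5 genes, respectively. By the width of the deposited confidence intervals, some rested on few reads. Examples are the long noncoding RNAs HIF1A-AS2, HEIH and HCP5, with the equivalent of 86, 28 and 17 reads over the 4 A498 libraries.

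The highest gene on in A498 only was OAS2 (chr12:113416274-113449528, hg19), an interferon-induced enzyme that makes the second messenger that activates RNase L. It was listed at 66.4, 63.1, 64.4 and 73.4 FPKM in the A498 NTC 1, NTC 2, siRNA1 and siRNA2 libraries and at 0.0521, 0.0123, 0.0861 and 0.0182 FPKM in those of 786-O. All values below are given in this order of libraries. The next was HIF1A-AS2 (chr14:62213757-62215807), a transcript antisense to the 3′ end of HIF1A, with 24.2, 27.7, 29.6 and 32.8 FPKM in A498 and 0 in every 786-O library. By the width of the deposited confidence intervals, this level rested on the equivalent of 86 reads over the 4 A498 libraries, against 3602 for POPDC3 at a similar level. HIF1A itself was also higher in A498, as given below, and without strand information reads of the 2 overlapping genes cannot be told apart. POPDC3, a membrane protein of muscle and heart, was at 26.1, 27.9, 26.6 and 26.3 FPKM against 0, 0.0125, 0.0418 and 0.0345. PTPRN, a secretory granule protein of neuroendocrine cells, had 27.6, 24.7, 23.8 and 25.1 FPKM in A498 and at most 0.0411 FPKM in 786-O. NEFM, the medium neurofilament chain, had 24.2, 23.2, 23.6 and 23.2 FPKM and at most 0.0236. PTPRN and NEFM are genes of neuronal or endocrine cells, and their levels in A498 were similar in control and siRNA libraries.

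COL5A1, a chain of type V collagen, came next with 23.7, 23.4, 22.1 and 24.6 FPKM in A498 and at most 0.0498 FPKM in 786-O. IL13RA2, a decoy receptor for interleukin 13, was at 20.7, 24.8, 21.5 and 23.5 FPKM against 0, 0.0132, 0.0934 and 0.0363, so that 1 of the 786-O libraries came close to the limit of 0.1. The long noncoding RNA AFAP1-AS1 had a mean of 22.3 ± 0.662 FPKM (SD, n = 4) in A498. TEAD2, a DNA-binding partner of YAP and TAZ, had 21.04 ± 0.971 FPKM, SELENBP1, a selenium-binding protein, 18.8 ± 0.330 FPKM and HSD17B14, a steroid dehydrogenase, 18.6 ± 1.12 FPKM. In 786-O these 4 genes reached at most 0.0446, 0.0313, 0.0202 and 0.0792 FPKM. CXCR4, the receptor of the chemokine CXCL12, was the twelfth, at 14.6, 14.8, 15.1 and 16.3 FPKM in A498 and 0.0187, 0.0315, 0.0371 and 0.0433 FPKM in 786-O.

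In 786-O, the gene on in that line only with the highest mean was NDN (chr15:23930554-23932450), which encodes necdin, a growth suppressor expressed from the paternal allele. It was listed at 16.5, 17.97, 18.7 and 17.004 FPKM in 786-O and 0.0111, 0.0161, 0 and 0 FPKM in A498. PEX6, an ATPase that recycles the import receptor of peroxisomes, stood at 12.96, 15.01, 13.6 and 13.04 FPKM against 0.0857, 0.0745, 0.0687 and 0.0724 in A498. EGFLAM, a matrix protein of ribbon synapses also known as pikachurin, had 13.3, 13.9, 13.997 and 13.3 FPKM in 786-O and MANEAL, an endomannosidase-like protein, 12.4, 12.5, 15.4 and 11.99. NNT, the mitochondrial transhydrogenase that makes NADPH from NADH, was at 9.58, 8.74, 9.73 and 8.41 FPKM in 786-O and at 0.0297, 0.0430, 0.0127 and 0 FPKM in A498. PEX6 and NNT serve functions that most cells need, yet all 4 A498 libraries were below 0.1 FPKM for both.

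WT1, a zinc finger factor of the early kidney and of podocytes, was the sixth, at 9.02, 8.44, 8.01 and 9.67 FPKM in 786-O and 0.0169, 0.0490, 0.0509 and 0.0358 FPKM in A498. The other 6 named genes of this group in 786-O had means between 6.18 and 7.80 FPKM. They were NRIP3, SLC35G2 (a transporter-like membrane protein), GALNT3 (which starts O-linked glycosylation), SYT13 (a synaptotagmin), AMZ1 (a metallopeptidase) and KRT79 (a type II keratin). SLC35G2 came nearest to absence in A498, listed at 0, 0.00826, 0 and 0 FPKM. Of the 38 genes, 2 are not named here.

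The limits decide the size of these groups. The gene with the lowest mean that was kept, FAM25A, had 1.00 FPKM, and the highest left out, LINC-PINT, 0.999 FPKM. Just under the limit of 0.1 FPKM in the other line were ZNF826P (0.0980 FPKM at most in 786-O) and SEMA6A (0.0948 FPKM at most in A498), and just over it were HPD at 0.101 and MT1B at 0.103 FPKM. Because a gene absent from 1 line had to average 1 FPKM over both, the lowest single values on the high side were 1.59 FPKM for TAC1 in A498 and 1.83 FPKM for MYEF2 in 786-O. Likewise, a gene averaging under 1 FPKM in 1 line was kept only through the other line. This fixed its direction in the lists below. The genes on in A498 only lay on chromosome 19 in 22 of 152 cases (14.5%), those on in 786-O only in 4 of 38 (10.5%), beside 6.46% of all genes kept.

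Promoters, taken as 300 bases around the RefSeq transcription start, most of them before it (GRCh38.p14), were found by symbol for 8880 of the 10973 genes. A ratio of observed to expected CG dinucleotides of at least 0.6, as in CpG islands, was found in 85.3% of these promoters. It was found in 68.7% of the promoters of genes at least 2-fold higher in A498 and in 83.0% of those higher in 786-O. For genes on in A498 only it was 68.0% of 103 and for those on in 786-O only 73.3% of 30. The core of the interferon-stimulated response element, searched on both strands as all motifs here (GAAA, 2 bases of any kind and GAAA again), occurred in 2.86% of all promoters, in 5.71% of those of genes higher in A498 and in 2.95% of those higher in 786-O. The TATA box TATAAA was found in 5.29%, 8.53% and 5.49% in the same order. For TGANTCA, the AP-1 site, the shares were 4.46%, 5.87% and 4.92%, and for TGACNNNGC, the core of the antioxidant response element, 15.4%, 14.6% and 15.5%. Among the few promoters of genes on in 1 line only, TATAAA had a similar share in A498 (8.74%), and the other motif shares did not follow these. The interferon core was in 1 of 103 for A498 and 2 of 30 for 786-O, TGANTCA in 3 and 2, TGACNNNGC in 9 and 3, and TATAAA in 9 and 1. TGANTCA and TGACNNNGC begin with the same 3 letters and can overlap. These are matches of letters, and no binding was measured.

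Among genes with a mean of at least 1 FPKM in both lines, the largest differences exceeded 100-fold. IFI27, a small interferon-induced protein of the mitochondrial and nuclear membranes, was at 1396, 1228, 1239 and 1227 FPKM in A498 and 9.32, 8.11, 9.63 and 8.96 FPKM in 786-O, a log2 difference of 7.13 ± 0.063 (SE, limma adjusted p = 1.96e-12). The groups were far apart, with the lowest A498 library over 100-fold above the highest of 786-O. The promoter of IFI27 is shown because it holds the GAAA core described above at 2 places, marked in capitals, the first of them on the reverse strand (RefSeq, GRCh38.p14, chr14:94110486-94110785, plus strand).
IFI27 promoter: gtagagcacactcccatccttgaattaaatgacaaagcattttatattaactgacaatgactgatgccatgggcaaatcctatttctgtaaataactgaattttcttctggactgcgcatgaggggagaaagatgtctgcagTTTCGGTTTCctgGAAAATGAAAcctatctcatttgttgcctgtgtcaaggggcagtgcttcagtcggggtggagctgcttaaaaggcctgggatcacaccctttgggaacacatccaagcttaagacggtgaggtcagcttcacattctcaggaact

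The chemokine CCL5, which draws T cells and monocytes, was at 106, 110.0, 107 and 108 FPKM in A498 and 0.979, 0.804, 1.00 and 1.36 FPKM in 786-O (log2 difference 6.59 ± 0.096). SRGN, the core protein of the proteoglycan serglycin in secretory granules, was at 152, 160.2, 152 and 145 against 0.745, 1.26, 0.925 and 1.15 FPKM. NUPR1, a stress-induced nuclear protein, had 212 ± 14.04 FPKM (SD, n = 4) in A498 and 1.91 ± 0.305 FPKM in 786-O. SNCG, gamma-synuclein, had 277 ± 21.8 and 2.72 ± 0.460 FPKM, and CRYAB, a small heat shock protein, 178 ± 5.17 and 1.76 ± 0.351. NME4, the mitochondrial nucleoside diphosphate kinase, had 123 ± 9.12 against 1.53 ± 0.235 FPKM. AKR1C1, the last of these 8 genes, is described with its family below. For each of the 8, the lowest A498 library lay far above the highest 786-O library.

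In the other direction, MT1E, a metallothionein that binds zinc and copper, was listed at 1903, 1914, 1843 and 1721 FPKM in 786-O and 2.67, 5.93, 3.45 and 5.63 FPKM in A498 (log2 difference 8.75 ± 0.22, limma adjusted p = 4.02e-10). Metallothionein genes are near copies of each other, and 36-base reads can be split among them, which also touches MT1HL1, at 104 ± 17.4 against 4.07 ± 0.535 FPKM. RARRES2, the secreted attractant chemerin, was at 342, 382, 363 and 299 FPKM against 2.90, 2.99, 2.10 and 2.29. RAC2, a small GTPase otherwise typical of blood cells, was at 140.1, 151, 140.3 and 155 against 1.84, 2.004, 1.43 and 1.41 FPKM. PLAU, the urokinase that activates plasminogen, had 64.2 ± 3.01 FPKM in 786-O and 1.75 ± 0.155 FPKM in A498. CSRP1, an actin-associated LIM protein, had 184 ± 13.3 and 6.37 ± 0.545 FPKM, and ANKRD1, a target of YAP, 79.4 ± 16.1 and 3.56 ± 0.285 FPKM. SPINT2, the eighth, is given with the epithelial genes.

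The most abundant genes that differed at least 2-fold belonged to antigen presentation and lysosomes in A498. B2M, the light chain of HLA class I, had 4341 ± 240.4 FPKM against 1359.5 ± 60.4 in 786-O, HLA-B 1869 ± 41.4 against 405 ± 14.6, and the lysosomal protease CTSD 1867 ± 113 against 448 ± 23.4. In 786-O they were ACTG1, cytoplasmic gamma actin, at 3861, 3726, 2302 and 3397 FPKM against 1668, 1644, 1171 and 1578, the ribosomal protein RPL11 at 3159 ± 171 against 1407 ± 44.1, and the glycolytic enolase ENO1 at 2260.1 ± 113 against 1002 ± 25.6 FPKM. ACTG1 was lowest with siRNA1 in both lines, and the lines did not overlap for it.

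Of 31 kidney lineage transcription factors, 17 passed the filter on low values. Of these, 4 (23.5%, beside 14.9% of all genes) were higher in A498 and 3 (17.6%, beside 8.30%) in 786-O. The other 10 were called but differed by less than 2-fold. The median log2 difference was 0.28 beside -0.019 for all genes. PAX8, the lineage factor most used to recognize renal tumors, was nearly level, at 42.9, 39.2, 39.3 and 40.6 FPKM in A498 and 44.3, 48.1, 43.2 and 41.9 FPKM in 786-O. Its call (log2 difference 0.13 lower in A498, limma adjusted p = 0.0262) was lost under 8 of the alternatives tried, with adjusted p from 0.0528 to 0.825, and the libraries of the lines overlapped. LHX1, a factor of the early nephron, was at 6.05, 6.41, 6.17 and 7.17 against 4.75, 4.42, 4.78 and 5.01 FPKM, and PAX2, which acts with PAX8, at 1.84, 1.52, 1.54 and 1.59 against 1.12, 1.40, 1.06 and 1.08. Both lines thus carried the renal factors PAX8, LHX1 and PAX2 in every library.

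The factors that differed by at least 2-fold included some of particular nephron segments and of stroma. POU3F3, a POU factor of the distal nephron, was at 2.35, 2.25, 1.998 and 1.67 FPKM in A498 and 0.0603, 0, 0 and 0.0792 FPKM in 786-O, and TFAP2A, a factor of the distal nephron and neural crest, at 3.06, 2.96, 3.33 and 3.49 against 0.373, 0.267, 0.359 and 0.214. For POU3F3 the confidence intervals were as wide as for 6 reads over the 4 A498 libraries, so that its level is poorly determined. SALL1, needed for the first outgrowth of the kidney, was at 6.08, 6.36, 5.64 and 6.46 against 2.50, 2.64, 2.69 and 2.64 FPKM. On the side of 786-O stood WT1, given above, IRX5, a factor of nephron segmentation with 3.58 ± 0.206 against 1.08 ± 0.115 FPKM, and FOXD1, the factor of kidney stromal progenitors, with 6.35, 6.76, 6.91 and 6.21 FPKM against 2.74, 2.52, 2.51 and 2.52. No library of 1 line reached the other for any of these 6.

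Genes of the differentiated nephron were mostly low or absent in both lines. Only 6 of 35 proximal tubule genes and 2 of 25 genes of the distal nephron and collecting duct passed the filter. The defining transport receptors of the proximal tubule, LRP2 and CUBN, had at most 0.00768 and 0.0577 FPKM in A498 and 0.000995 and 0.0254 FPKM in 786-O, and UMOD, of the thick ascending limb, at most 0.0276 and 0.0134 FPKM. The brush border peptidases split between the lines. ANPEP (aminopeptidase N) was at 144, 130.3, 131 and 140.5 FPKM in A498 and 4.76, 5.54, 4.99 and 4.78 in 786-O, and DPP4 at 24.5, 26.5, 26.8 and 26.6 against 9.30, 9.36, 10.2 and 9.67, whereas ENPEP (aminopeptidase A) was at 3.71, 3.60, 4.002 and 3.29 FPKM in 786-O against 0.958, 1.27, 1.16 and 1.35 in A498. CDH6, the cadherin of the developing proximal tubule, also favored 786-O at 5.16 ± 0.228 against 2.07 ± 0.0538 FPKM. PDZK1, a scaffold of brush border transporters, at 7.57 ± 0.277 and 8.16 ± 0.520 FPKM, and the injury marker HAVCR1, at 5.32 ± 0.518 and 5.07 ± 0.267 FPKM, were not called (limma adjusted p = 0.116 and 0.366). Of the distal genes, the kinase WNK4 favored A498 (1.58 ± 0.190 against 0.438 ± 0.0366 FPKM) and FXYD2, the gamma subunit of the sodium pump, favored 786-O at 8.81, 12.3, 11.5 and 9.40 FPKM against 0.891, 0.567, 0.553 and 0.435.

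**Figure D2:**
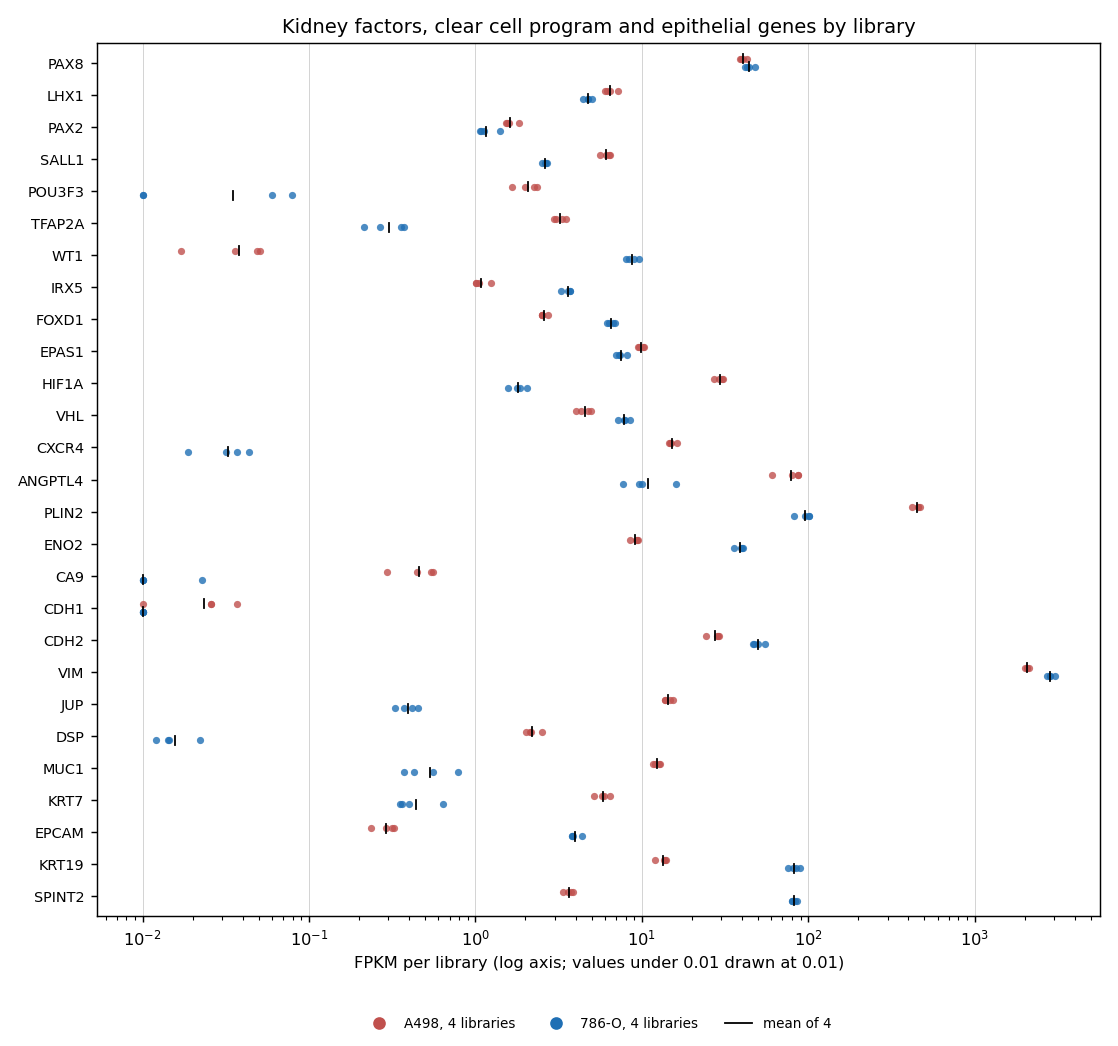
FPKM in every library on a log axis for genes of kidney lineage, the clear cell program and epithelial state, with A498 in red, 786-O in blue and a bar at each mean of 4 libraries. PAX8 overlaps between the lines near 40 FPKM, while WT1, HIF1A, CXCR4 and JUP are separated by a wide gap.

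Of 22 genes of the clear cell program and its drivers, 19 passed the filter. Of these, 8 (42.1%, beside 14.9% of all genes) were higher in A498 and 1 (5.26%, beside 8.30%) in 786-O, and 10 were called with less than 2-fold. The median log2 difference was 0.46. The sharpest contrast among the drivers was HIF1A (chr14:62162119-62214977), at 27.1, 30.7, 29.1 and 30.5 FPKM in A498 and 1.56, 1.78, 2.06 and 1.86 FPKM in 786-O, a log2 difference of 3.95 ± 0.070 (SE, limma adjusted p = 5.00e-11). EPAS1 differed far less, at 9.44, 9.63, 10.2 and 10.3 FPKM in A498 and 7.25, 7.44, 6.997 and 8.15 in 786-O, although every A498 library lay above every one of 786-O. VHL was at 4.03, 4.34, 4.78 and 4.98 against 7.77, 7.20, 8.52 and 7.88 FPKM, lower in A498 by 0.78 on the log2 scale. By these levels, the A498 libraries contained transcripts assigned to both alpha subunits and 786-O mainly that of HIF2. Reads of HIF1A and of the overlapping HIF1A-AS2 cannot be told apart, as stated above, so the size of the HIF1A difference is uncertain.

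Among the targets, PLIN2, which coats lipid droplets, was at 468, 459, 423 and 456 FPKM in A498 and 101, 101, 82.1 and 96.0 FPKM in 786-O. ANGPTL4, a secreted inhibitor of lipoprotein lipase, was at 87.2, 80.0, 60.9 and 86.6 against 9.61, 10.1, 7.75 and 16.0 FPKM. ENO2, the neuronal enolase, was the only called gene of at least 2-fold in the other direction, at 40.9, 40.3, 36.0 and 39.4 FPKM in 786-O against 9.34, 9.45, 8.47 and 9.28. The glucose transporter SLC2A1 differed little, with 116 ± 2.82 and 125 ± 7.01 FPKM, and its call (limma adjusted p = 0.0249) was lost under 7 alternatives. VEGFA, the vascular growth factor, had 32.2 ± 1.78 and 23.4 ± 1.34 FPKM, the growth factor TGFA 76.1 ± 2.37 and 41.6 ± 0.913, and cyclin D1 (CCND1) 34.3 ± 3.91 and 66.5 ± 10.9 FPKM. These 3 were called with less than 2-fold, the first pair higher in A498 and CCND1 in 786-O. CA9, the carbonic anhydrase that is a diagnostic marker of ccRCC, did not pass the filter, with 0.543, 0.444, 0.293 and 0.559 FPKM in A498 and 0, 0.0229, 0 and 0 in 786-O. This marker was therefore low in A498 and listed near 0 in 786-O.

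The tumor suppressor locus of chromosome 9p21 was examined next. CDKN2A, which encodes the inhibitors p16 and p14ARF, was listed at 0 in all 8 libraries, as was its neighbor CDKN2B. MTAP, the adjacent methylthioadenosine phosphorylase gene often lost with them, was present in both lines, at 14.5, 16.2, 16.4 and 15.9 FPKM in A498 and 8.01, 7.78, 8.91 and 8.22 in 786-O. Of 31 genes in and around band 9p21, 20 passed the filter, of which 11 (55.0%, beside 14.9% of all genes) were higher in A498 and none in 786-O, with a median log2 difference of 1.08. They included IFNB1, interferon beta, at 4.07, 3.94, 4.26 and 5.24 FPKM in A498 and 0.0432, 0, 0 and 0.0333 FPKM in 786-O, HACD4, an enzyme of fatty acid elongation, at 19.1 ± 1.71 against 0.412 ± 0.0780 FPKM, and IFT74, of the ciliary transport complex, at 14.4 ± 0.916 against 1.28 ± 0.117. IFNB1 and HACD4 passed the filter only through their A498 values. The abundant RPS6 did not pass the test (1831 ± 97.1 and 1875 ± 119 FPKM, limma adjusted p = 0.564). Over the whole arm 9p, 31.3% of the 115 genes tested were called and at least 2-fold higher in A498, with a median log2 difference of 0.59.

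Epithelial junction and keratin genes passed the filter in 23 of 44 cases. Of these, 7 (30.4%, beside 14.9% of all genes) were higher in A498 and 4 (17.4%, beside 8.30%) in 786-O. The median log2 difference was 0.34. Several genes of desmosomes and the apical surface favored A498. JUP (plakoglobin) was at 15.4, 13.8, 14.7 and 13.8 FPKM against 0.375, 0.416, 0.454 and 0.328, DSP (desmoplakin) at 2.01, 2.12, 2.15 and 2.50 against 0.0142, 0.0120, 0.0143 and 0.0220, the mucin MUC1 at 12.3 ± 0.542 against 0.536 ± 0.181 and the keratin KRT7 at 5.81 ± 0.516 against 0.439 ± 0.134 FPKM. The protease inhibitor SPINT2 favored 786-O with 80.5, 85.5, 83.6 and 80.5 FPKM against 3.86, 3.63, 3.36 and 3.78, as did the adhesion molecule EPCAM (3.83, 3.85, 4.38 and 3.83 against 0.236, 0.324, 0.317 and 0.289 FPKM), KRT19 (82.7 ± 5.91 against 13.3 ± 0.894) and the polarity gene CRB3 (2.62 ± 0.341 against 1.10 ± 0.380). Neither line therefore had the higher level for the whole list. CDH1, encoding E-cadherin, did not reach 0.04 FPKM in any library.

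Of the mesenchymal genes, VIM and CDH2 were well expressed in both lines. VIM (vimentin) was at 2111, 2071, 2024 and 2079 FPKM in A498 and 2827, 2843, 2719.7 and 3039 FPKM in 786-O, and CDH2 (N-cadherin) at 24.2, 28.3, 28.7 and 29.1 against 50.2, 47.0, 54.8 and 46.8, both called but less than 2-fold higher in 786-O. Of the 39 genes of the list, 25 passed the filter. Of these, 10 (40%, beside 14.9% of all genes) were higher in A498 and 7 (28%, beside 8.30%) in 786-O, with a median of -0.081. Collagen chains showed opposite directions within 1 family. COL6A1 was at 81.6, 75.4, 75.3 and 74.2 FPKM in A498 and 11.1, 12.7, 11.2 and 11.6 in 786-O, but COL6A3, another chain of type VI collagen, at 0.121, 0.0861, 0.0992 and 0.107 against 5.50, 5.68, 5.06 and 6.12. COL1A1 and the cadherin CDH11 were low but higher in A498 (3.19 ± 0.253 against 0.236 ± 0.0374 and 2.24 ± 0.197 against 0.133 ± 0.0432 FPKM). Fibronectin (FN1) was higher in 786-O at 157, 163, 201 and 159.6 FPKM against 24.9, 26.3, 27.8 and 29.2, as were the gelatinase MMP2 (11.1 ± 0.854 against 0.314 ± 0.0318) and the actin-binding TAGLN (12.2 ± 0.803 against 0.840 ± 0.0350).

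The HOX genes encode homeobox factors that mark position along the body axis, in 4 clusters numbered from the front to the rear. Of 39 HOX genes, 29 passed the filter, and most differed little: 15 were called with less than 2-fold and 3 were not called. Of those that passed, 5 (17.2%, beside 14.9% of all genes) were higher in A498 and 6 (20.7%, beside 8.30%) in 786-O (median -0.091). Per transcript length, HOXB7 and HOXA9 were the highest of the list in both lines, at 44.04 and 30.2 FPKM in A498 and 25.3 and 35.8 FPKM in 786-O. The widest difference was at the rear end of the C cluster. HOXC13 was at 2.88, 3.04, 3.18 and 2.77 FPKM in A498 and 0, 0.0141, 0.0125 and 0 FPKM in 786-O, and it is the only HOX gene on in 1 line only. HOXA7 was at 9.13, 8.84, 9.73 and 8.20 against 1.27, 0.809, 1.28 and 1.19 FPKM and HOXA11 at 19.7, 19.7, 18.3 and 17.9 against 4.60, 4.30, 4.30 and 3.91, while HOXB5 was 1.46 ± 0.12 (SE) higher in A498 on the log2 scale. HOXB8 was higher in 786-O at 5.77, 5.70, 5.23 and 5.78 FPKM against 1.61, 1.46, 1.49 and 1.71, and HOXD1, HOXC4 and HOXD9 by 1.75, 1.64 and 1.28 on the log2 scale. HOXA7 and HOXA11 were thus higher in A498 while HOXA9 between them, at 30.2 ± 1.06 and 35.8 ± 1.51 FPKM, differed by less than 2-fold.

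**Figure D3:**
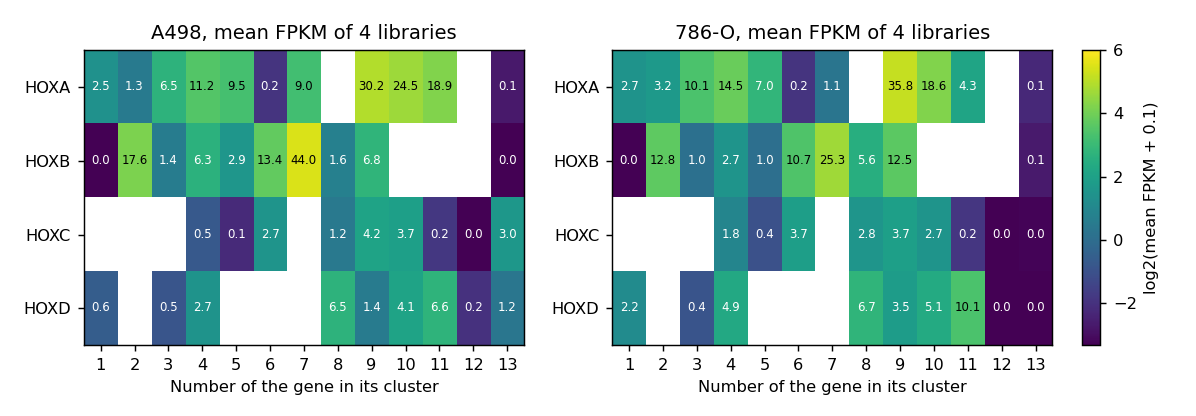
Mean FPKM over 4 libraries of each HOX gene, printed in its cell and colored by log2(mean FPKM + 0.1), with the clusters as rows and the number of the gene in its cluster as columns; white cells have no gene. Most cells have similar shades in both panels, and single genes stand out, such as HOXC13 with 2.97 FPKM in A498 and 0.00664 FPKM in 786-O.

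Genes of drug metabolism and efflux were mostly higher in A498. Of 44 genes, 36 passed the filter, 22 (61.1%, beside 14.9% of all genes) were higher in A498 and 3 (8.33%, beside 8.30%) in 786-O, and the median log2 difference was 1.74. The aldo-keto reductases AKR1C1, AKR1C2 and AKR1C3 reduce steroids and reactive carbonyls. AKR1C1 (chr10:5005454-5020158) was at 521, 522, 552 and 475 FPKM in A498 and 1.80, 1.63, 1.81 and 1.46 FPKM in 786-O (log2 difference 8.19 ± 0.042, limma adjusted p = 1.95e-13). AKR1C2 was at 129, 127, 139 and 117 against 0.446, 0.445, 0.439 and 0.393 FPKM and AKR1C3 at 368, 360.0, 394 and 334 against 5.77, 5.99, 5.78 and 5.58. These genes are near copies, so the split of short reads among them is uncertain, although all 3 were higher in A498 in every library. UGT2B7, which conjugates steroids and drugs to glucuronic acid, was at 14.3, 16.3, 17.1 and 17.6 FPKM in A498 against 0.180, 0.119, 0.0973 and 0.101.

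The differences in the other direction were large as well. GSTP1 (chr11:67351066-67354124), the glutathione transferase that conjugates electrophiles, was at 581, 624, 624 and 575 FPKM in 786-O and 0.299, 0.650, 0.449 and 0.737 FPKM in A498, a log2 difference of 9.95 ± 0.19 (SE, limma adjusted p = 7.07e-11). UGT1A6, another glucuronosyltransferase, was at 134, 125, 135 and 115 FPKM in 786-O against 0.365, 0.678, 0.377 and 1.03. The UGT1A genes share their last exons, so the level of single members is uncertain. DPYD, which degrades pyrimidines, was at 3.76 ± 0.377 against 1.09 ± 0.0752 FPKM. The abundant AKR1B1 (2018 ± 70.5 and 1115 ± 67.0 FPKM), GSTO1 (298 ± 6.90 and 242 ± 8.21), CBR3 (49.3 ± 2.97 and 26.9 ± 1.76) and NNMT (104 ± 1.44 and 179.9 ± 6.92) were called with less than 2-fold, and of these 4 NNMT alone was higher in 786-O. The promoters of the extreme genes of each direction are shown to compare their CG content, with each CG in capitals (RefSeq, GRCh38.p14). AKR1C1 (chr10:4963165-4963464, plus strand) holds 3 CG in 300 bases, an observed to expected ratio of 0.240, and GSTP1 (chr11:67583562-67583861, plus strand) holds 36, a ratio of 0.879. Methylation was not measured.
AKR1C1 promoter: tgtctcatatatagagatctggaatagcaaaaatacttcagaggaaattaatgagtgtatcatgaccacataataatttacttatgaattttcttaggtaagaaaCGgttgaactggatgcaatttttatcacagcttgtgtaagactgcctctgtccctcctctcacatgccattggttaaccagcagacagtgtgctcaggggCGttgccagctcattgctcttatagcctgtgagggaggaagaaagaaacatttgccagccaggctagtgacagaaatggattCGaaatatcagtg
GSTP1 promoter: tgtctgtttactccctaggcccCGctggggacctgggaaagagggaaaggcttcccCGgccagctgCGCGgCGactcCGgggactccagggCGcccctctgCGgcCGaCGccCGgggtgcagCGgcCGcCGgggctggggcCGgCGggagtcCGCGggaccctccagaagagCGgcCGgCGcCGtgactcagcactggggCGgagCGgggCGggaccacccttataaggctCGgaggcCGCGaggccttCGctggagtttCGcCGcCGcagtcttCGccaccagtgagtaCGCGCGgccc

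**Figure D4:**
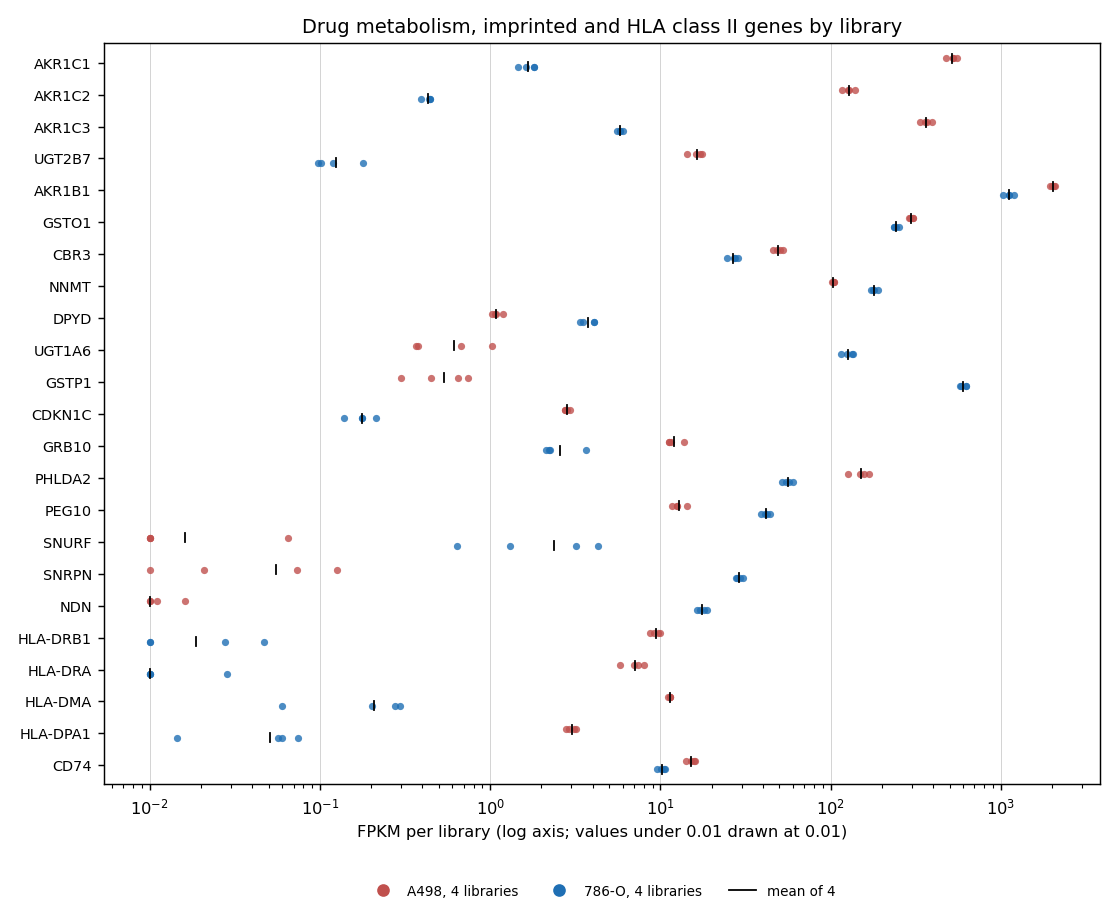
FPKM in every library on a log axis for genes of drug metabolism, imprinted genes and HLA class II genes, with A498 in red, 786-O in blue and a bar at each mean of 4 libraries. The AKR1C genes and HLA-DRA lie to the right in A498, and GSTP1, UGT1A6, SNRPN and NDN lie to the right in 786-O.

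Imprinted genes are expressed from the allele of 1 parent. Of 40 on the list, 36 were in the files and 16 passed the filter. Of these, 4 (25%, beside 14.9% of all genes) were higher in A498 and 5 (31.25%, beside 8.30%) in 786-O, with a median of -0.10. The 4 higher in A498 included 3 neighbors on chromosome 11p15, the cell cycle inhibitor CDKN1C at 2.75, 2.83, 2.93 and 2.74 FPKM against 0.212, 0.139, 0.176 and 0.178, PHLDA2, a regulator of placental growth, at 167, 157, 149 and 127 against 54.3, 60.5, 56.7 and 51.8, and the transporter SLC67A1 (formerly SLC22A18) at 18.5 ± 1.56 against 3.66 ± 0.280. GRB10, an adaptor that inhibits insulin signaling, was the fourth, with 11.9 ± 1.22 against 2.56 ± 0.727 FPKM. On chromosome arm 11p as a whole, 33.3% of the 213 genes tested were called and at least 2-fold higher in A498. In 786-O, 3 paternally expressed genes of chromosome 15q11 were higher. SNRPN, a spliceosome protein, was at 27.7, 30.7, 29.3 and 28.1 FPKM in 786-O and 0.0209, 0.0728, 0.126 and 0 FPKM in A498, and SNURF, encoded by the same transcript, at 3.18, 1.302, 4.33 and 0.642 FPKM against at most 0.0646. SNURF varied widely among the 786-O libraries, and the split between these overlapping entries is uncertain. NDN, a neighbor of SNRPN, had 17.5 FPKM in 786-O as described above. The retrotransposon-derived PEG10 was at 41.6 ± 2.07 against 12.8 ± 1.16 FPKM. The promoter of NDN (chr15:23687256-23687555, minus strand) is shown with its 35 CG in capitals, a ratio of 0.951.
NDN promoter: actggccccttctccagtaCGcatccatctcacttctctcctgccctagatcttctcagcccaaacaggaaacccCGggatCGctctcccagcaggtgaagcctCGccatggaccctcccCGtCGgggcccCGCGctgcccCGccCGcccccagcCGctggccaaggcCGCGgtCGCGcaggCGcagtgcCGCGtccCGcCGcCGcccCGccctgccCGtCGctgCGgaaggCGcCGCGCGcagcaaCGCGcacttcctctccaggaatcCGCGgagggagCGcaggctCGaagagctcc

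HLA class II molecules present peptides to helper T cells and are normally limited to antigen-presenting cells or induced by interferon gamma. Of 17 genes of this pathway, 9 passed the filter, 6 (66.7%, beside 14.9% of all genes) were higher in A498 and none in 786-O (8.30% of all genes), with a median log2 difference of 2.30, and 3 were on in A498 only. HLA-DRA, the alpha chain of HLA-DR, was at 6.98, 7.42, 8.01 and 5.82 FPKM in A498 and 0, 0.0286, 0 and 0 in 786-O. HLA-DRB1 was at 9.19, 9.64, 9.94 and 8.74 against 0.0279, 0.0469, 0 and 0 FPKM and HLA-DPA1 at 3.01 ± 0.182 against 0.0512 ± 0.0256. HLA-DMA, which loads the peptide, was at 11.5, 11.3, 11.1 and 11.4 against 0.0599, 0.202, 0.297 and 0.277 FPKM. HLA-DRA, HLA-DRB1, HLA-DPA1 and HLA-DMA passed the filter only through their A498 values, so their direction followed from the filter. CD74, the chaperone of class II chains, was at 15.2 ± 0.877 FPKM in A498 and 10.2 ± 0.482 FPKM in 786-O, and of the factors RFXANK and RFXAP, the first was at 34.6 ± 2.45 and 25.002 ± 1.86 FPKM, the second at 1.23 ± 0.131 and 1.99 ± 0.396. These 3 were called with less than 2-fold, RFXAP in favor of 786-O. HLA genes are highly variable and partly near copies, so the values of single members are uncertain. The macrophage marker CD68 was also higher in A498 (given with the markers below), while PTPRC, which marks all leukocytes, was listed at 0 in every library.

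Of 49 cancer-testis antigens, which are normally confined to germ cells, 48 were in the files and only 4 passed the filter. Of these, 3 (75%, beside 14.9% of all genes) were higher in A498 and none (8.30% of all genes) in 786-O. PRAME was at 86.9, 86.4, 85.5 and 84.7 FPKM in A498 and 15.7, 16.4, 15.6 and 17.4 FPKM in 786-O, SPANXB1 at 18.2 ± 2.12 against 1.01 ± 0.0815 and SPANXC at 8.36 ± 0.207 against 0.795 ± 0.2501, the latter pair being near copies. SPANXC passed the filter only through its A498 values. The sperm protein SPA17 differed little (13.4 ± 0.677 and 15.1 ± 0.552 FPKM). The MAGE and most other members of the list did not pass the filter in these libraries.

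Adhesion genes were examined as lists of their own. Of 26 integrin subunits, 14 passed the filter, 7 (50.0%, beside 14.9% of all genes) were higher in A498 and none in 786-O (8.30% of all genes), with a median log2 difference of 1.13. The collagen receptor subunits ITGA1 and ITGA2 were at 1.73, 2.01, 2.06 and 2.11 and 4.11, 4.52, 4.05 and 4.74 FPKM in A498 against 0.0846, 0.0992, 0.114 and 0.122 and 0.434, 0.445, 0.407 and 0.452 in 786-O. ITGA4 and ITGAX, integrins best known from leukocytes, were on in A498 only, with 2.99 ± 0.325 and 2.39 ± 0.209 FPKM. An entry of ITGA4 had a failed estimate in 1 library. ITGA1, ITGA2, ITGA4 and ITGAX passed the filter only through their A498 values, so their direction followed from the filter. The most abundant subunits, ITGB1 (152 ± 12.2 and 173 ± 4.10 FPKM), ITGB5 (86.5 ± 2.11 and 71.8 ± 2.26), ITGA5 (82.7 ± 4.77 and 45.2 ± 2.06) and ITGAV (30.8 ± 3.56 and 18.7 ± 2.26), were called with less than 2-fold, ITGB1 being the one in favor of 786-O.

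Only 4 of 53 clustered protocadherins, which give neurons individual surface identities, passed the filter. All 4 were higher in A498 (beside 14.9% of all genes), with PCDHGC3 at 49.7, 45.7, 49.2 and 48.5 against 22.3, 22.1, 21.3 and 22.7 FPKM the highest. PCDHA10 (2.65 ± 0.217 FPKM) and PCDHGB5 (2.04 ± 0.110 FPKM) were on in A498 only and PCDHB2 was at 2.49 ± 0.317 against 0.229 ± 0.0346 FPKM. All but PCDHGC3 passed the filter only through their A498 values, so their direction followed from the filter. The alpha and gamma genes share their last exons within a cluster, and taking the highest single entry of each gene left 2 of them, while with no filter on low values 26 were higher in A498. Of 49 genes of axon guidance and synaptic adhesion, 25 passed. Of these, 8 (32%, beside 14.9% of all genes) were higher in A498 and 6 (24%, beside 8.30%) in 786-O (median -0.052). The ephrin system was split. The receptor EPHB4 was at 29.2, 27.7, 28.0 and 27.0 FPKM in A498 against 0.252, 0.242, 0.336 and 0.282, and the ligand EFNB1 at 24.1 ± 1.56 against 2.52 ± 0.0608, but the ligand EFNA1 at 0.696, 0.610, 0.719 and 0.613 FPKM in A498 against 14.04, 16.6, 15.1 and 15.2 in 786-O. The semaphorin receptor PLXND1 (21.99 ± 2.19 against 1.05 ± 0.0959 FPKM) and the adhesion molecule L1CAM (38.6 ± 1.24 against 1.92 ± 0.0965) were higher in A498. The semaphorins SEMA6A and SEMA5A and the teneurin TENM3 were higher in 786-O, at 2.61 ± 0.573, 2.48 ± 0.103 and 2.08 ± 0.0492 FPKM against 0.0843 ± 0.0146, 0.239 ± 0.0218 and 0.721 ± 0.0452 FPKM.

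Most markers of other cell types were low or absent, CD68 in A498 being the main exception. Of 23 markers of blood, endothelium, liver, neurons, muscle and fibroblasts, 3 passed the filter and 12 stayed below 0.1 FPKM in every library. The leukocyte markers PTPRC and CD3E were listed at 0 in all 8 libraries, and the endothelial PECAM1 reached at most 0.0385 FPKM. The summed level of the list was 143 to 157 FPKM in A498 and 6.19 to 10.4 FPKM in 786-O. CD68, a lysosomal protein used as a macrophage marker, made up most of it, at 151, 139, 138 and 142 FPKM in A498 and 2.22, 4.78, 1.70 and 5.20 in 786-O. COL1A1, given above, and SNAP25, a neuronal vesicle protein at 0.812 ± 0.133 and 2.80 ± 0.230 FPKM, were the others, the latter higher in 786-O.

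The genes that differed were not spread evenly over the chromosomes. Over the 41 chromosome arms with at least 20 genes tested, the median log2 difference ran from -0.58 on Xp (140 genes) to 0.68 on 8p (133 genes). After 8p came 11p at 0.61 (213 genes), 9p at 0.59 (115 genes) and 17p at 0.50 (191 genes). On 8p, 89.5% of the genes were higher in A498 and 31.6% were called and at least 2-fold higher there, beside 14.9% of all genes. At the other end, 5p had a median of -0.55 (82 genes), 1p -0.47 (630 genes), 6q -0.46 (217 genes) and both arms of chromosome 18 -0.44. On Xp 27.9% and on 1p 20.6% of the genes were called and at least 2-fold higher in 786-O, beside 8.30% of all genes. The medians of the 4 single pairs of libraries ranged from 0.59 to 0.73 on 8p and from -0.64 to -0.57 on Xp, narrower than the distance between those arms. Genes of 1 arm are not independent replicates, no test was made across them, and DNA was not examined.

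**Figure D5:**
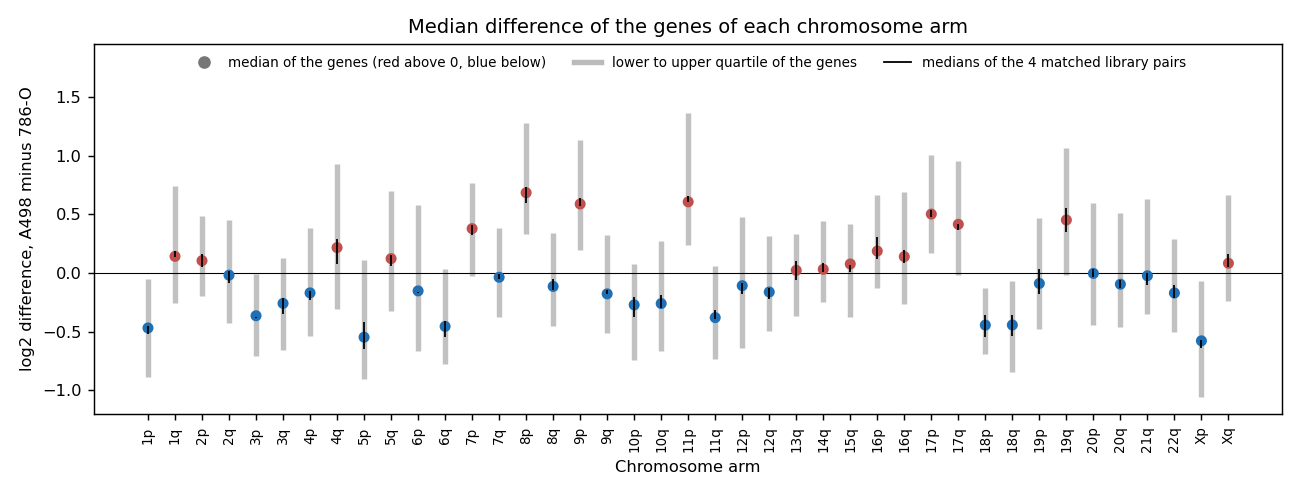
Points show the median log2 difference (A498 minus 786-O) of the genes on each chromosome arm, red above 0 and blue below, with grey bars from the lower to the upper quartile of the genes and black lines over the medians of the 4 matched pairs of libraries. The arms run from 0.68 on 8p to -0.58 on Xp, and the black lines are short beside that range.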

How the data were processed

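Total RNA of 8 samples was sequenced as single-end 36-base reads from Illumina TruSeq libraries. Per the labels, the authors aligned the reads with TopHat2 (2.0.0) to hg19 and deposited FPKM values from Cufflinks (2.0.2), with confidence limits and a status, for 75378 entries per library. Strand use is not given in the sources used here. The 43150 RefSeq entries were matched to current symbols (96.6% matched) and summed per symbol into 22678 genes, of which 10973 spanned 200 bp or more and averaged at least 1 FPKM. Of the genes kept, 251 include an entry whose estimate failed in some library. The remaining entries, with Ensembl or assembled-transcript identifiers, were not used, except that of SLINKY.

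Values were compared as log2(FPKM + 0.1) with limma (3.58.1, R 4.3.3), with trend, line and transfection as terms, and Benjamini-Hochberg adjustment over all genes kept. A gene was called at an adjusted p under 0.05, and counts also required a 2-fold difference. Exact permutation was used for SLINKY alone and ignored transfection. Depth was estimated from the confidence limits, on the basis that their width follows the read number. It is an approximation and covers counting error only. The genes named are the 12 highest of those on in 1 line only, the 8 largest differences in each direction among genes with a mean of 1 FPKM in both lines, the 4 largest in each direction of each list (filled up by level), the 3 most abundant in each direction, and a fixed set of renal and tumor suppressor genes. Some genes that meet this rule are not reported here. Defining markers and CDKN2B were added after their values were seen. Genes on chromosome Y and XIST stayed in the fit and are not named. The comparison and the gene lists were chosen with earlier results of these data known. Scripts were tested on simulated data. Alternatives covered the pseudocount, the filter, scaling, summing, covariates, blocks and leaving out each library.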

Additional observations from a re-analysis of the deposited data

Results flagged for a closer look

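In 21 of 301 groups of 4 libraries of the named genes, 1 library stood apart from the other 3 of its line by Dixon's criterion at the 95% level. Chance gives about 1 in 20 such groups. The A498 NTC 1 library was the one apart in 7 of them, for IFI27 (1396 FPKM against 1227 to 1239 in the other 3), FOXD1 (2.74 against 2.51 to 2.52), COL6A1 (81.6 against 74.2 to 75.4), NKD2 (2.84 against 2.38 to 2.41) and SLC26A11 (6.08 against 5.53 to 5.61), where it was highest, and for DPP4 (24.5 against 26.5 to 26.8) and CDH2 (24.2 against 28.3 to 29.1), where it was lowest. The A498 NTC 2 library was highest for GRB10 (13.8 FPKM), WNT3 (3.46 FPKM) and S100A4 (7.58 FPKM). With siRNA1 in A498, ENO2 (8.47 FPKM) and KRT19 (12.02 FPKM) were lowest. With siRNA2 in A498, PDZK1 (7.98 FPKM) was highest and S100A16 (51.9 FPKM) lowest.

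In 786-O, NTC 2 was highest for GRB10 (3.65 FPKM) and lowest for IRX3 (4.66 FPKM). The siRNA1 library was highest for MANEAL (15.4 FPKM), EPCAM (4.38 FPKM) and FN1 (201 FPKM against 157 to 163) and lowest for HOXB8 (5.23 FPKM). The siRNA2 library was highest for SERPINB1 (22.7 FPKM). GRB10 was thus highest in NTC 2 of both lines. These departures were small beside the differences between the lines, except for PDZK1, IRX3 and SERPINB1, where the lines lay close together.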

How the results depend on the processing

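The counts of genes depend mainly on the filter on low values, which sets how many genes are tested. Without it, 2948 genes were at least 2-fold higher in A498, and 248 and 66 genes were on in A498 only and in 786-O only. With a mean of at least 5 FPKM, 841 and 528 genes were at least 2-fold higher in A498 and 786-O. The groups of genes on in 1 line only follow their limits by construction. With off set to under 0.5 FPKM they held 371 genes in A498 and 118 in 786-O, with off under 0.02 FPKM 51 and 10, and with on set to 5 FPKM 55 and 15. Leaving out 1 library at a time gave 8861 to 9190 called genes, 1636 to 1663 at least 2-fold higher in A498 and 913 to 933 in 786-O, with 152 to 161 on in A498 only and 38 to 42 on in 786-O only. Another pseudocount, median ratio scaling, the highest entry per gene, no covariate, the control libraries alone, and leaving out genes with a failed estimate, entries off the primary chromosomes or the limit on span, all kept these counts within 1.5 times.

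With the replicate block, in which libraries of the same label in both lines were paired, 9111 genes were called, 1642 were at least 2-fold higher in A498 and 912 in 786-O. The numbers of the control libraries are only numbers in the labels, and the differences between the controls of the 2 lines correlated at -0.147 across genes. Pairing them crosswise gave 9475, 1641 and 913 genes.

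For 194 named genes and all alternatives, 3958 of 3993 values kept direction and side of the threshold. In 23 values, for 6 genes (PAX8, SLC2A1, SERPINB8, IRX3, SPA17 and PAX2), the call was lost, and in 10, for APTX, PDZK1 and HAVCR1, it was gained. The direction turned for RPS6 without 786-O NTC replicate 1 (log2 difference 0.0056, in a range of -0.078 to 0.0056 when leaving out 1 library) and for SERPINB1 with the highest entry per gene (0.088). The cause was not tested. Some genes named by the rule above, with a mean of at least 1 FPKM in the line, had deposited intervals as wide as for fewer than 100 reads over 4 libraries. They were HIF1A-AS2 (86), MT1HL1 (70), HLA-DPA1 (64) and POU3F3 (6) in A498 and S100A4 (92), SRGN (50), SPANXB1 (50) and SNURF (46) in 786-O. HEIH (28) and HCP5 (17), given earlier as examples outside that rule, were also under 100 in A498. Single reads limit the values under 0.1 FPKM, where a gene on in 1 line only had a median of 5 reads in total over the 4 libraries of 786-O, or 8.5 over those of A498.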

Other observations

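Several further lists set the lines apart gene by gene with both directions in each list. Of 76 genes of the WNT, Hedgehog, Notch and BMP pathways, 27 passed the filter on low values. Of these, 6 (22.2%, beside 14.9% of all genes) were at least 2-fold higher in A498 and 7 (25.9%, beside 8.30%) in 786-O. The median log2 difference was 0.11. The ligand WNT3 was at 3.26, 3.46, 3.23 and 3.23 FPKM in A498 and 0.288, 0.304, 0.251 and 0.270 FPKM in 786-O, whereas WNT7B was at 0.492, 0.419, 0.320 and 0.558 against 6.72, 7.61, 5.26 and 7.05 FPKM. NKD2, an inhibitor of WNT signaling, was on in A498 only at 2.51 ± 0.222 FPKM (SD, n = 4). The receptors were split, with FZD2 (7.98 ± 0.379 against 2.12 ± 0.252 FPKM) and LGR4 (5.99 ± 0.722 against 1.26 ± 0.0949) higher in A498 and FZD6 higher in 786-O (22.1 ± 2.54 against 7.96 ± 0.916). The BMP targets ID2 and ID3 were higher in 786-O, at 46.5 ± 1.08 and 103 ± 8.58 FPKM against 12.2 ± 0.776 and 46.2 ± 3.79 FPKM.

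Of 403 solute carriers, 194 passed the filter, and 31 (16.0%) were higher in A498 and 16 (8.25%) in 786-O, close to the shares of all genes. Some single carriers differed widely. SLC17A9, which loads vesicles with ATP, was at 48.6, 52.3, 45.0 and 49.3 FPKM in 786-O and 0.0473, 0.126, 0.0592 and 0.0666 FPKM in A498, and SLC43A3, a purine base transporter, at 81.1, 78.5, 71.3 and 78.9 against 0.896, 1.09, 0.768 and 0.797 FPKM. SLC38A5, a glutamine transporter, had 2.98 ± 0.177 against 0.230 ± 0.0408 FPKM. In A498, SLC22A17 (5.81 ± 0.331 FPKM) and SLC25A33, a mitochondrial pyrimidine carrier (2.90 ± 0.373 FPKM), were on while 786-O stayed under 0.1 FPKM in every library, and SLC9A9 (5.06 ± 0.227 FPKM) and SLC26A11 (5.70 ± 0.257 FPKM) were the next.

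Of 463 zinc finger genes named ZNF, 241 passed. Of these, 33 (13.7%, beside 14.9% of all genes) were higher in A498 and 35 (14.5%, beside 8.30%) in 786-O. ZNF655 was at 16.2, 17.1, 15.3 and 19.3 FPKM in 786-O and 0.0347, 0.126, 0.0543 and 0.120 FPKM in A498, and ZNF71, ZNF559 and ZNF700, all on chromosome 19, were on in 786-O only, at 3.38 ± 0.417, 3.01 ± 0.353 and 4.10 ± 0.331 FPKM. In the other direction ZNF114, also on chromosome 19, was at 8.71, 10.2, 8.41 and 8.82 FPKM in A498 and at most 0.0530 FPKM in 786-O, followed by ZNF467 (3.10 ± 0.338 FPKM), ZNF219 (5.15 ± 0.735) and ZNF747 (3.55 ± 0.225). Entries of ZNF559 and ZNF219 had failed estimates in some library.

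Of 34 serpins, 10 passed. Of these, 3 (30%, beside 14.9% of all genes) were higher in A498 and 2 (20%, beside 8.30%) in 786-O (median -0.51). SERPINA1, alpha-1 antitrypsin, was at 43.5, 48.5, 43.1 and 44.1 FPKM in 786-O against 4.19, 3.78, 4.25 and 4.06, and SERPINA6, the carrier of corticosteroids, at 2.02 ± 0.173 against 0.503 ± 0.121 FPKM. SERPINE2 (97.4 ± 5.88 against 18.8 ± 0.865 FPKM), SERPINI1 (2.76 ± 0.261 against 0.741 ± 0.145) and the collagen chaperone SERPINH1 (114 ± 10.2 against 44.9 ± 2.53) were higher in A498. Less than 2-fold higher in 786-O were SERPINB6 (62.8 ± 0.612 and 106 ± 4.91 FPKM), SERPINB1 (17.9 ± 0.928 and 21.7 ± 0.646) and SERPINB8 (4.54 ± 0.129 and 5.06 ± 0.225).

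Of 50 S100, IGFBP and claudin genes, 22 passed. Of these, 6 (27.3%, beside 14.9% of all genes) were higher in A498 and 4 (18.2%, beside 8.30%) in 786-O (median 0.45). S100A16, a calcium-binding protein, was at 440.1, 472, 458 and 391 FPKM in 786-O against 60.9, 59.6, 60.4 and 51.9, while its neighbors on chromosome 1, S100A3 (18.3 ± 1.23 against 6.09 ± 1.09 FPKM) and S100A4 (6.61 ± 0.652 against 1.68 ± 0.321), favored A498. The insulin-like growth factor binding proteins were likewise split. IGFBP6 was at 274, 243, 239 and 226 FPKM in A498 against 26.02, 28.1, 26.2 and 26.8, but IGFBP1 was listed at 0 in every A498 library and at 2.47, 2.80, 1.91 and 2.80 FPKM in 786-O, and IGFBP4 was at 0.0463, 0.0268, 0.0139 and 0.0196 against 3.11, 3.02, 3.21 and 2.80 FPKM. CLDN23 was higher in A498 (9.47 ± 0.165 against 1.24 ± 0.158 FPKM) and CLDN6 in 786-O (2.14 ± 0.261 against 0.382 ± 0.0645).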
